A study of Mus musculus with 60 samples.

Results

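Polycomb repressive complex 1 (PRC1) is a chromatin complex, and the 9 genes described here encode its main subunits: Ring1, Rnf2, Bmi1, Pcgf2, Cbx2, Cbx6, Cbx7, Cbx8 and Phc1. They were taken by name from the 24508 genes of the expression table, and all 9 were found. The core of every PRC1 is a RING ligase, RING1 or RNF2 (RING1B), bound to a PCGF protein, and the pair attaches ubiquitin to histone H2A. In canonical PRC1 the core also holds a chromobox (CBX) protein, which binds the trimethylated lysine of histone H3 that Polycomb repressive complex 2 (PRC2) makes, and a polyhomeotic (PHC) protein, which lets complexes cluster. Other PRC1 forms carry RYBP or YAF2 in place of the chromobox protein. In neurons Polycomb complexes are known for keeping developmental genes and the genes of other cell types silent.

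The study compared the hippocampus of 30-week-old R6/1 mice with that of wild-type (WT) mice, both on a CBA x C57BL/6 mixed background and without treatment in the labels. R6/1 is a mouse line that models Huntington's disease: it carries a fragment of the human huntingtin gene with an expanded CAG repeat, under the human gene's own promoter, beside the intact mouse gene. RNA-seq was made from frozen tissue of 9 samples per genotype, which the labels call independent biological replicates, with between 12299434 and 16457022 reads on genes in the WT libraries and between 13260311 and 16736544 in the R6/1 libraries. Lamin B1 ChIP-seq, which maps chromatin at the nuclear lamina, gave 1 list of domains per genotype from 3 replicates of 5 pooled mice.

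Levels are in RPKM, reads per kilobase of transcript with the authors' scaling for sequencing depth, so genes can be compared with each other per length. Differences were tested with limma on log2(RPKM + 0.5), as a two-sided test. It covered the 14446 genes whose mean over the 18 libraries reached 0.5 RPKM, and a gene was called where the Benjamini-Hochberg adjusted p was under 0.05. All 9 PRC1 genes passed this filter on low values. Of the 9, 7 were called, against 48.3% of all tested genes. Bmi1, Cbx2, Cbx7, Cbx8 and Phc1 rose and Ring1 and Cbx6 fell; a call in the higher direction was made for 24.8% of all tested genes and one in the lower direction for 23.5%. Calls were thus common in these data, and most differences were small: 91.2% of the tested genes differed by less than 0.5 on the log2 scale. The median log2 fold change of the 9 genes was 0.21, and that of all tested genes 0.0036. In 4 of the 9 (Bmi1, Cbx2, Cbx6 and Cbx8) the values of the genotypes did not overlap at all, against 11.9% of all tested genes (5.5% higher, 3 of the 4 here, and 6.38% lower, Cbx6 here). The authors' deposited table, made with another test, has an adjusted p under 0.05 for the 7 genes named and for 40.4% of the genes that have one there.

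**Figure D1:**
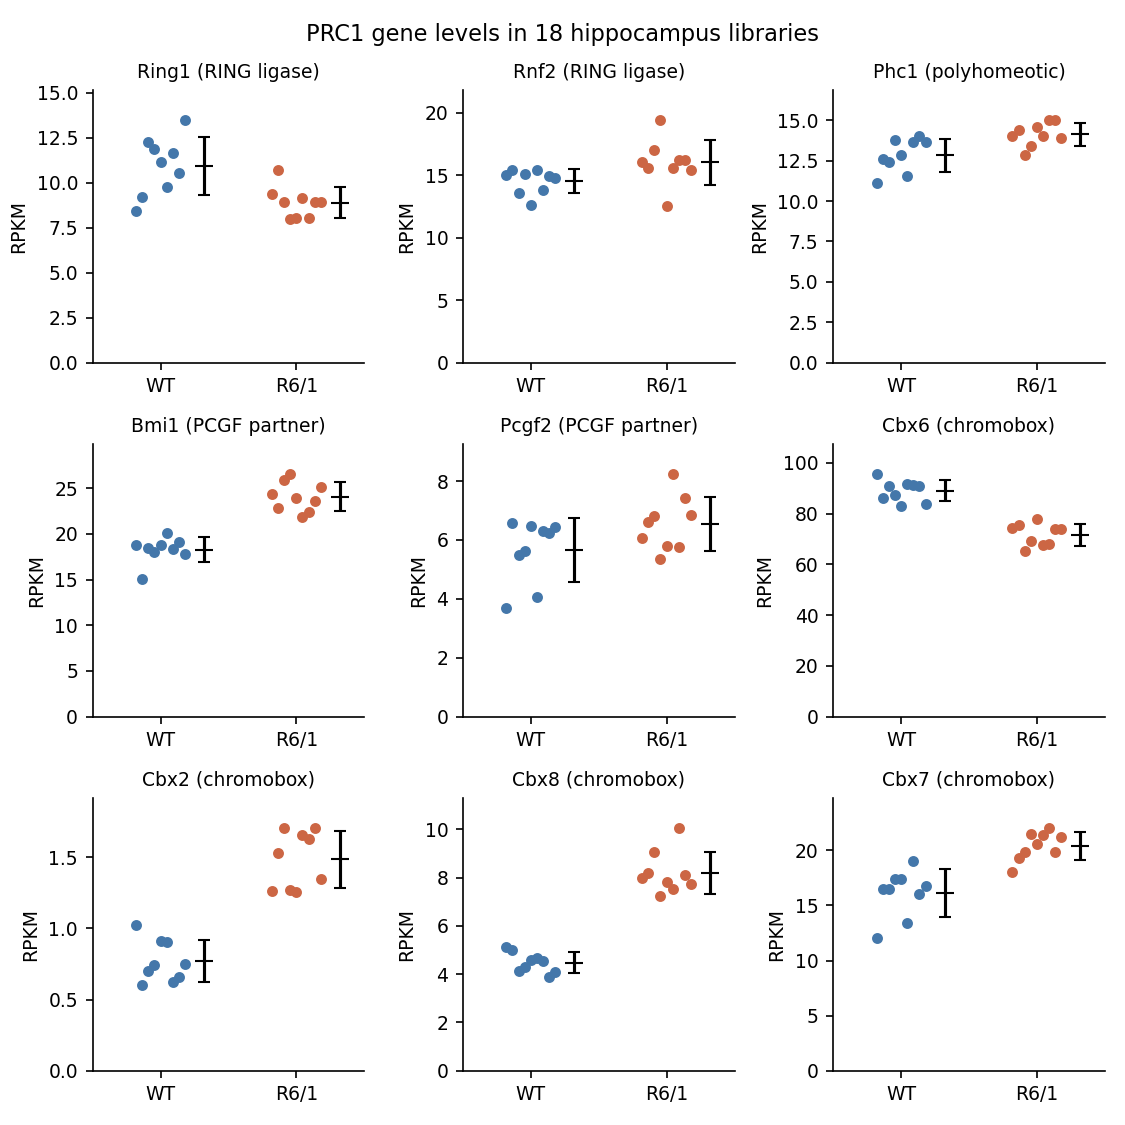
Levels of the 9 PRC1 genes in RPKM (vertical axes, each from 0) in the 9 WT and 9 R6/1 libraries; points are libraries and bars the mean ± SD. The point clouds of Bmi1, Cbx2, Cbx6 and Cbx8 are separate between the genotypes, with Cbx6 the 1 of these 4 that is lower in R6/1.

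Promoters of the members are shown first, because 4 of them share a sequence element, of which Bmi1 and Cbx8 rose, Cbx6 fell and Pcgf2 was not called. RefSeq promoter sequence (build GRCm38.p6, the 250 bases before the start) was at hand for 8 of the 9 genes, all but Cbx2. These 8 windows hold between 5 and 30 CpG dinucleotides, and 6 of them hold at least 20. The median of all 32536 windows of this length is 6. The E-box CACGTG, which reads the same on both strands, lies in the windows of Bmi1, Pcgf2, Cbx6 and Cbx8, 4 of 8, and in 6.04% of all windows; of the 5883 windows with at least 20 CpG it lies in 10.2%. Its first base is 215 bases upstream of the start in Bmi1 (chr2:18676768-18677017, plus strand), 137 in Pcgf2 (chr11:97699649-97699898, minus strand), 26 in Cbx6 (chr15:79834334-79834583, minus strand) and 98 in Cbx8 (chr11:119040914-119041163, minus strand). Cbx8 also holds the cyclic AMP response element TGACGTCA, palindromic as well, 29 bases upstream, which 1.56% of all windows hold. The 4 windows follow, 5′ to 3′ on the gene's strand, with the E-box and the cyclic AMP element in capitals.
Bmi1: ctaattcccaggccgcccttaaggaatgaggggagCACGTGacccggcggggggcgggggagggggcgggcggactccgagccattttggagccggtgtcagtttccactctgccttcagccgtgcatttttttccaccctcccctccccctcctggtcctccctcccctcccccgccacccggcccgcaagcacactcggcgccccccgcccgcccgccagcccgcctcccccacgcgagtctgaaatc
Pcgf2: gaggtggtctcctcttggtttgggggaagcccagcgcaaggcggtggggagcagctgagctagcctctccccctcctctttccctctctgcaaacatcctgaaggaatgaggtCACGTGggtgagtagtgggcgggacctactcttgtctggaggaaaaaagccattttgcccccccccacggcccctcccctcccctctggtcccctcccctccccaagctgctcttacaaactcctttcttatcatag
Cbx6: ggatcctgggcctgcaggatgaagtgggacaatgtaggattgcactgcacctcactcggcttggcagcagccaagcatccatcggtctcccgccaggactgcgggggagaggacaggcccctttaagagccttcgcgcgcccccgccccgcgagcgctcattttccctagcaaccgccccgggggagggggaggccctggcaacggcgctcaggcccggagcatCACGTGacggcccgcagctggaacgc
Cbx8: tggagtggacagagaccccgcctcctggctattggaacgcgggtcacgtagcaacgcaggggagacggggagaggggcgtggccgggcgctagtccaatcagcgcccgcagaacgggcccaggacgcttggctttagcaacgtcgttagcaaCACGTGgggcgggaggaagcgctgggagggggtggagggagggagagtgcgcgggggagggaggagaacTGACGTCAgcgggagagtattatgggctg
The GC box GGGCGG or its complement CCGCCC is in 7 of the 8 windows and in 33.0% of all. Its share among windows with at least 20 CpG, as 6 of the 8 have, was not computed. The CCAAT box (CCAAT or ATTGG) and the E2F element GCGGGAAA (or TTTCCCGC) were searched too. Of the 8 windows, only those of Cbx7 and Cbx8 hold the CCAAT box, against 33.8% of all windows. The E2F element is absent from the 8 windows and lies in 0.901% of all. No E-box or cyclic AMP element overlaps another searched motif. These matches are letters in a window; no file used here measures binding at them, and the search was chosen after the expression values were known.

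Cbx8, a chromobox gene, had the smallest p of the members that rose. Its level ran from 3.86 to 5.14 RPKM in the WT libraries (median 4.56) and from 7.22 to 10.1 RPKM in the R6/1 libraries (median 7.99). Every R6/1 library was above every WT library. The means were 4.48 ± 0.430 and 8.19 ± 0.871 RPKM (SD, n = 9 each), a ratio of 1.83 and a difference of 0.80 on the log2 scale (SE 0.062; adjusted p = 3.17e-09 by limma). Of all tested genes, 0.727% had a log2 fold change at least this high. These levels rest on 68 to 105 reads per WT library and 152 to 221 per R6/1 library. The window printed for Cbx8 is the one that holds both elements.

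Cbx2 is the chromobox gene known for compacting chromatin and was the lowest of the 9 in both genotypes. It ran from 0.603 to 1.03 RPKM in WT (median 0.745) and from 1.26 to 1.71 RPKM in R6/1 (median 1.53). Again every R6/1 library was above every WT library, on 31 to 54 reads per WT library and 68 to 112 per R6/1 library. The mean rose from 0.769 ± 0.146 to 1.48 ± 0.198 RPKM (SD, n = 9 each), a ratio of 1.93. Because the level is close to the 0.5 that is added before the logarithm, the fitted log2 difference of 0.65 (SE 0.080; adjusted p = 1.77e-06 by limma) is smaller than that ratio; it was 0.87 with 0.1 added, and the authors' deposited table gives 0.89. At least as high a log2 fold change was found in 1.21% of the tested genes.

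Cbx7, the chromobox gene best known for repressing the Ink4 locus, ran from 12.01 to 19.0 RPKM in WT (median 16.5) and from 18.1 to 22.1 RPKM in R6/1 (median 20.6). All but 1 of the 9 R6/1 libraries lay above the highest WT library. The mean went from 16.1 ± 2.15 to 20.4 ± 1.28 RPKM (SD, n = 9 each), a difference of 0.34 on the log2 scale (SE 0.068; adjusted p = 0.000364 by limma). WT replicates 1 and 6 had the lowest WT values, 12.01 and 13.4 RPKM, and the other 7 WT libraries 16.1 to 19.0 RPKM. With both left out the log2 fold change was 0.25 (limma adjusted p = 0.000161), so the call did not rest on them.

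Cbx6 was by far the most abundant of the 9 per length and the one chromobox gene that fell. WT libraries held 83.0 to 95.8 RPKM (median 91.1) and R6/1 libraries 65.2 to 77.8 RPKM (median 73.9). No R6/1 library reached the lowest WT library. WT replicates 1 and 6, the lowest for Cbx7, were here the highest at 95.8 and 91.6 RPKM. The mean fell from 89.0 ± 4.16 to 71.7 ± 4.29 RPKM (SD, n = 9 each), a difference of -0.31 on the log2 scale (SE 0.038; adjusted p = 1.38e-06 by limma). The annotation places a second gene, Npcd, on the same strand over exons of Cbx6, and Npcd is listed at 0 in all 18 libraries. How reads shared by both genes were counted is not stated. The level of Cbx6 could thus include transcripts of Npcd or lack the shared reads. Nptxr, which starts 29.9 kb from Cbx6 on the same strand and lies within the span of Npcd, fell as well, from 2.86 ± 0.870 to 1.60 ± 0.686 RPKM (SD, n = 9 each; log2 fold change -0.70, limma adjusted p = 0.00396). Whether Nptxr shares reads with Npcd was not examined, so the same limit may hold for its level. In bulk tissue such as this, fewer cells of a type and less RNA per cell cannot be told apart.

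Summed over the chromobox members Cbx2, Cbx6, Cbx7 and Cbx8, the WT level was 110.4 ± 3.397 RPKM and the R6/1 level 101.8 ± 3.63 RPKM (SD, n = 9 each), with ranges of 105.6 to 115.5 and 95.7 to 107.5 that overlapped at their edges. The makeup of that sum differed too. Cbx6 made up 80.6% ± 1.90 of it in WT (78.3% to 84.0%) and 70.4% ± 2.15 in R6/1 (66.8% to 73.1%). Cbx7 went from 14.6% to 20.1%, Cbx8 from 4.06% to 8.06% and Cbx2 from 0.697% to 1.46%. None of the 4 shares overlapped between the genotypes, Cbx7 being the closest with 16.5% in its highest WT library and 17.8% in its lowest R6/1 library. These shares were not tested, since they restate the levels of the same genes. Within a library they add up to the whole, so a lower Cbx6 share raises the others and the 4 are not separate results. The Cbx7 levels themselves overlapped between the genotypes. The limit given above for the reads of Cbx6 holds for the shares too.

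**Figure D2:**
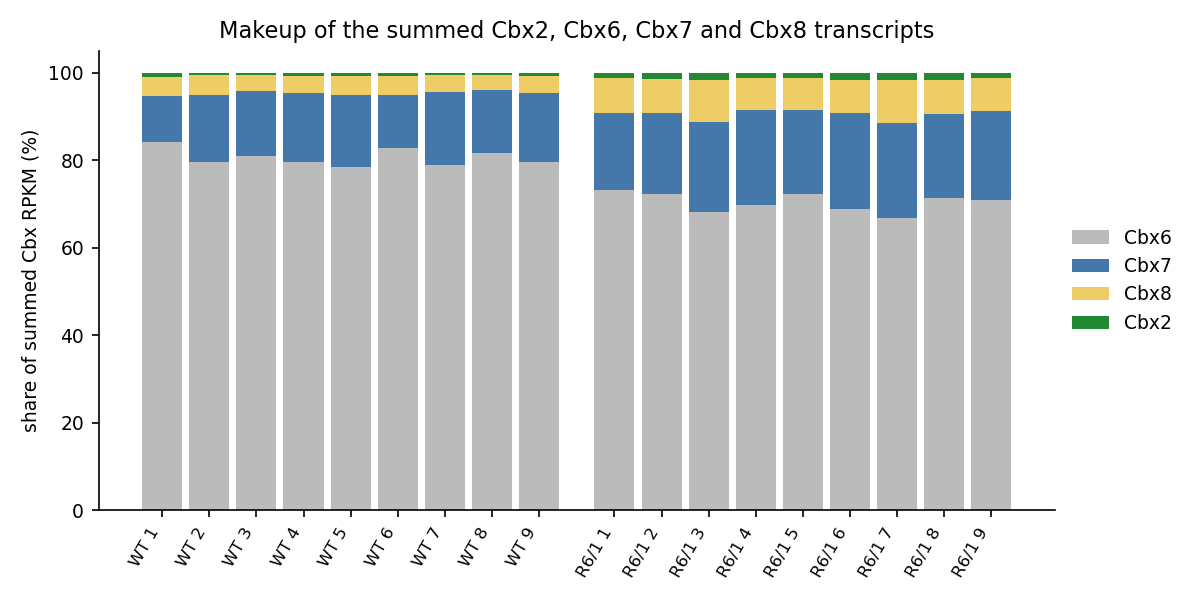
Share of each of the 4 chromobox members in their summed RPKM (vertical axis, percent), 1 stacked bar per library, WT on the left and R6/1 on the right. Cbx6 fills 78.3% to 84.0% of every WT bar and 66.8% to 73.1% of every R6/1 bar, with Cbx7 taking up most of the rest.

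For the RING ligases, the catalytic subunits, Ring1 was called lower and Rnf2 was not called. Ring1 ran from 8.43 to 13.5 RPKM in WT (median 11.2) and from 7.97 to 10.7 RPKM in R6/1 (median 8.92). The ranges overlapped, with 3 R6/1 libraries below the lowest WT library. The mean fell from 10.9 ± 1.60 to 8.89 ± 0.850 RPKM (SD, n = 9 each), a difference of -0.27 on the log2 scale (SE 0.076; adjusted p = 0.00533 by limma). Rnf2, the main H2A ubiquitin ligase in most cells, ran from 12.6 to 15.4 RPKM in WT (median 15.0) and from 12.6 to 19.5 RPKM in R6/1 (median 16.1). In 7 R6/1 libraries it was above the highest WT library, and in R6/1 replicate 5 it was just below the lowest. The means were 14.5 ± 0.979 and 16.0 ± 1.79 RPKM (SD, n = 9 each), a log2 fold change of 0.13 with a 95% interval of 0.0080 to 0.26 before adjustment, and the limma adjusted p of 0.0730 missed the threshold. Without R6/1 replicate 5 the log2 fold change was 0.17 and the limma adjusted p 0.00670. With all libraries kept Rnf2 was also called under 3 other settings, library weights among them (0.14, limma adjusted p = 0.0341).

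Of the PCGF partners, which fix the kind of PRC1 that forms around the ligase, Bmi1 (PCGF4) rose and Pcgf2 (MEL18) was not called. Bmi1, which supports the self-renewal of neural stem cells, ran from 15.0 to 20.1 RPKM in WT (median 18.5) and from 21.9 to 26.6 RPKM in R6/1 (median 23.9). The genotypes did not overlap. The mean rose from 18.3 ± 1.37 to 24.1 ± 1.59 RPKM (SD, n = 9 each), a difference of 0.39 on the log2 scale (SE 0.048; adjusted p = 1.70e-06 by limma). Commd3 lies just upstream of Bmi1 on the same strand and did not pass the test, with means of 40.5 ± 2.05 and 37.9 ± 3.03 RPKM (SD, n = 9 each; log2 fold change -0.09, limma adjusted p = 0.0870). Pcgf2 ran from 3.69 to 6.58 RPKM in WT (median 6.22) and from 5.37 to 8.25 RPKM in R6/1 (median 6.60). WT replicates 1 and 6 stood at 3.69 and 4.05 RPKM, below the 5.47 to 6.58 RPKM of the other WT libraries. The means were 5.65 ± 1.08 and 6.55 ± 0.911 RPKM (SD, n = 9 each), a log2 fold change of 0.21 with a 95% interval of -0.0075 to 0.42 before adjustment (limma adjusted p = 0.103), and 0.07 without those 2 libraries.

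Phc1, the polyhomeotic subunit whose SAM domain joins complexes to each other, ran from 11.1 to 14.0 RPKM in WT (median 12.8) and from 12.9 to 15.0 RPKM in R6/1 (median 14.0). Of the 9 R6/1 libraries, 6 were above the highest WT library. The mean rose from 12.8 ± 1.02 to 14.1 ± 0.712 RPKM (SD, n = 9 each), a difference of 0.14 on the log2 scale (SE 0.046; adjusted p = 0.0186 by limma). WT replicates 1 and 6 again had the lowest values, 11.1 and 11.6 RPKM, and without both the log2 fold change was 0.09 and the call was lost (limma adjusted p = 0.0733).

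A scaling of each library by its own total of reads, in place of the authors' scaling, moved the median of all tested genes to 0.07 and the share of higher calls among all calls from 51.4% to 66.9%. Under it Rnf2 (log2 fold change 0.20, limma adjusted p = 0.00533) and Pcgf2 (0.28, limma adjusted p = 0.0415) were called higher too, so that 7 of the 9 rose and the same 2, Ring1 and Cbx6, fell. Directions of the other 7 genes were the same under every scaling tried.

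Ratios of 2 genes within a library depend little on how libraries are scaled where both levels are well above the 0.5 RPKM added, which does not hold for Cbx2. There were 4 ratios compared between genes with the same place in the complex, by an exact two-sided permutation test over the 48620 ways to assign the genotypes to the 18 libraries, with adjustment over the 4. The log2 ratio of Cbx7 over Cbx6 went from -2.44 ± 0.245 to -1.79 ± 0.147 (SD, n = 9 each; exact permutation p = 4.11e-05, the smallest these libraries can give, adjusted 0.000165), with every R6/1 library above every WT library. For Rnf2 over Ring1 it went from 0.41 ± 0.26 to 0.81 ± 0.21 (SD, n = 9 each; exact permutation p = 0.00276, adjusted 0.00551), and 4 R6/1 libraries were above the highest WT library. The mean balance of the ligases and that of these chromobox genes thus differed between the genotypes by this test. The ratios restate levels of the same genes in the same libraries. Cbx7 and Cbx6 were already called in opposite directions, so their ratio is not a separate result. The limit given above for the reads of Cbx6 holds for this ratio too. For the ligases the libraries still overlapped, at 0.128 to 0.802 in WT and 0.529 to 1.24 in R6/1. Pcgf2 over Bmi1 differed by -0.18 (exact permutation p = 0.218, adjusted 0.218), which did not pass the threshold. With WT replicates 1 and 6 left out it differed by -0.34 (exact permutation, adjusted p = 0.00839). For Cbx8 over Cbx2, neighbours that both rose, the difference was 0.15 (exact permutation p = 0.0446, adjusted 0.0595), and it moved with the value added to each RPKM: it was -0.02 with 0.1 (exact permutation, adjusted p = 0.837) and 0.25 with 1 (exact permutation, adjusted p = 0.00222). With single libraries left out it ran from 0.13 to 0.20 and passed the threshold without WT replicate 2 or 7 or without R6/1 replicate 6 or 8 (exact permutation, adjusted p from 0.00806 to 0.0401).

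**Figure D3:**
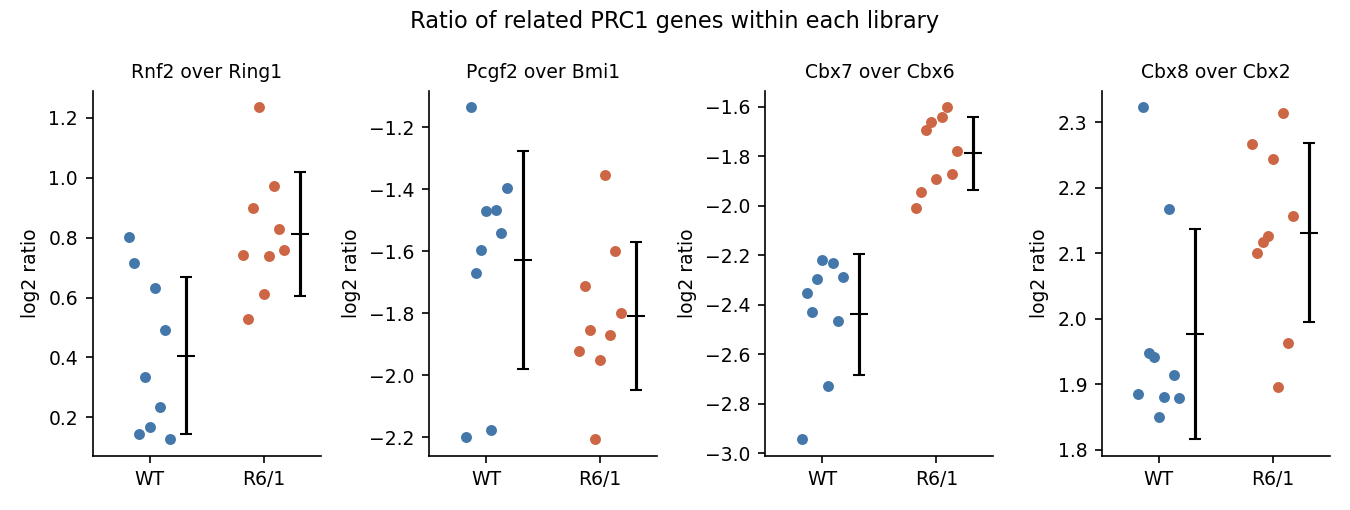
Log2 ratio of 2 related PRC1 genes within each library (vertical axes, log2 of (RPKM + 0.5) over (RPKM + 0.5), not starting at 0) in WT and R6/1; points are libraries and bars the mean ± SD. Cbx7 over Cbx6 separates the genotypes fully, and for Rnf2 over Ring1 4 R6/1 libraries lie above all WT libraries.

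Ordered by mean RPKM in WT, the 9 genes ran Cbx6, Bmi1, Cbx7, Rnf2, Phc1, Ring1, Pcgf2, Cbx8 and Cbx2. The ranges of neighbours in this order were apart for Cbx6 and Bmi1, for Ring1 and Pcgf2 and for Cbx8 and Cbx2; the other neighbours overlapped. Bmi1 was above Cbx7 in 7 of 9 WT libraries and in 9 of 9 R6/1 libraries. The order in R6/1 was the same but for Cbx8, which stood above Pcgf2 in 8 of 9 R6/1 libraries, whereas Pcgf2 stood above Cbx8 in 7 of 9 WT libraries. In R6/1 the ranges of Phc1 and Ring1 were apart, which in WT they were not, and so were those of Cbx6 and Bmi1 and of Pcgf2 and Cbx2.

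Position in the genome was examined in build NCBIM37 (mm9). Cbx2 (chr11:118884276-118892584, plus strand) and Cbx8 (chr11:118897619-118902283, minus strand) are neighbours, with their starts 18.0 kb apart, and both rose. Genes farther out did not share one direction. Tbc1d16, 205.5 kb from the start of Cbx2, had means of 11.3 RPKM in both genotypes (limma adjusted p = 0.979), and Enpp7, on the other side of Cbx2, is listed at 0 in all libraries. Rbfox3, the gene of the neuronal protein NeuN, lies beyond Enpp7 and fell from 44.7 ± 3.87 to 35.6 ± 1.58 RPKM (SD, n = 9 each; log2 fold change -0.32, limma adjusted p = 1.19e-05). Gaa, the lysosomal acid glucosidase gene, lies 244.9 kb from the start of Cbx2 and rose from 106.1 ± 10.6 to 160.3 ± 24.0 RPKM (SD, n = 9 each; log2 fold change 0.58, limma adjusted p = 8.72e-06). Of 13 protein-coding genes considered within 500 kb of the start of Cbx2, 9 were tested, of which 4 were called higher and 1 lower, Cbx2 and Cbx8 included, beside 24.8% and 23.5% of all tested genes.

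Cbx6 (chr15:79654326-79665118, minus strand) and Cbx7 (chr15:79746237-79801549, minus strand) are neighbours too and moved in opposite directions. Their starts are 136.4 kb apart in this annotation. The RefSeq promoter windows (chr15:79834334-79834583 and chr15:79932647-79932896 in GRCm38.p6) place the starts closer together. The window searched for Cbx7 thus belongs to another start than the one used here. Between them lies Apobec3, with means of 0.863 and 0.892 RPKM (limma adjusted p = 0.770). Within 500 kb of the start of Cbx6, 25 of 28 protein-coding genes were tested, of which 5 were called higher and 7 lower, near the same background. Over the nearest pair of protein-coding genes on either side of each of the 9 genes, leaving out the 9 themselves, 22 of 25 genes considered were tested, with 5 higher, 6 lower and a median log2 fold change of -0.0052. These counts are near the background of 24.8% and 23.5%, and with each library's own total of reads 8 were higher.

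**Figure D4:**
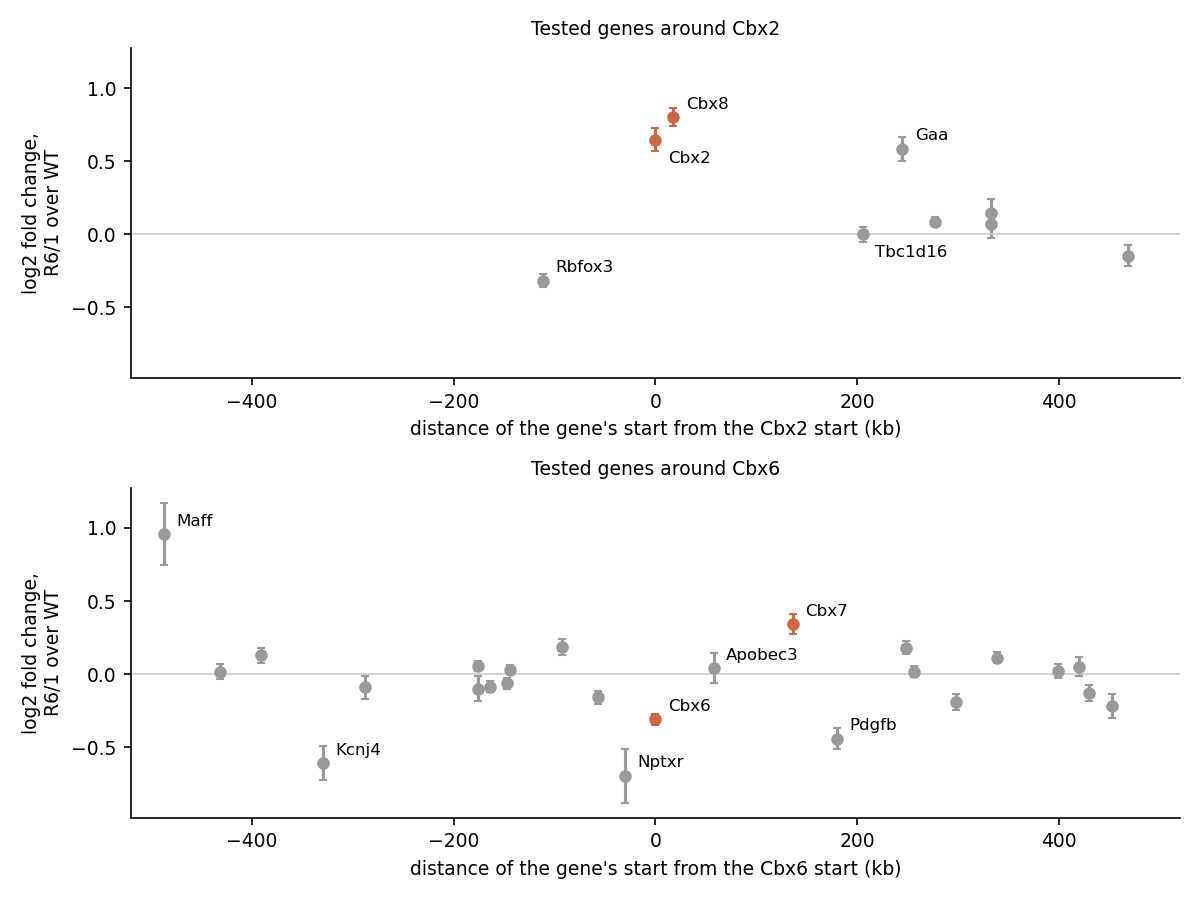
Log2 fold change ± SE (vertical axes) of the tested protein-coding genes considered within 500 kb of the start of Cbx2 (top) and Cbx6 (bottom) against the distance of its start (horizontal axes, kb), chromobox genes in orange and other genes in grey. Cbx2 and Cbx8 stand at 0.65 and 0.80 beside neighbours of either direction, and Cbx6 and Cbx7 lie on opposite sides of 0.

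The other members lie alone: Ring1 at chr17:34157737-34161625, Rnf2 at chr1:153316536-153347953, Bmi1 at chr2:18598645-18608256, Pcgf2 at chr11:97550137-97561811 and Phc1 at chr6:122267749-122290579, all on the minus strand but Bmi1. None of the 9 genes has its start or any of its body in a lamin B1 domain, neither in the 145 WT domains nor in the 166 R6/1 domains. The share of all tested genes outside the domains was not computed, so this is not read as a trait of the 9. Rnf2 is nearest to a domain, with its start 501 kb from a WT border and 1167 kb from the nearest R6/1 border. For Cbx2 and Cbx8 the nearest WT border is 25459 and 25477 kb away. There is 1 domain list per genotype, so the difference for Rnf2 has no replicate check.

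Of 29 further PRC1 subunit genes, listed from general knowledge, 28 passed the filter and 13 were called higher and 4 lower, with a median log2 fold change of 0.08, against 24.8% higher and 23.5% lower among all tested genes. With each library scaled by its own total of reads these counts were 15 and 2, and those over all 14446 tested genes 5110 and 2526. The smallest p-values belonged to Scml4, Auts2, Rybp, Mga, Usp7 and L3mbtl2. Scml4, an SCM-like Polycomb protein, rose from 1.01 ± 0.163 to 1.72 ± 0.240 RPKM (SD, n = 9 each; log2 fold change 0.56, limma adjusted p = 9.05e-06), and its genotypes did not overlap. Of the other canonical subunits Phc3 rose by 0.14 on the log2 scale (limma adjusted p = 0.0110), Phc2 and Scmh1 did not pass the test, and Scml2 was under the filter. These 4 tested canonical subunits thus gave 2 higher and 0 lower.

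Subunits of the variant complexes moved in both directions. Their grouping by complex was chosen after the values were seen. The counts per group are small and stand beside 24.8% higher and 23.5% lower among all tested genes. Rybp, which occupies the place of a chromobox protein, rose from 17.9 ± 0.965 to 21.6 ± 1.41 RPKM (SD, n = 9 each; log2 fold change 0.26, limma adjusted p = 2.42e-05), while its relative Yaf2 fell from 35.8 ± 2.34 to 32.4 ± 1.61 RPKM (SD, n = 9 each; -0.14, limma adjusted p = 0.00804). Among the other PCGF genes Pcgf3 (0.09) and Pcgf5 (0.26) rose, and Pcgf1 (-0.04) and Pcgf6 (-0.12) did not pass the test. Auts2, which joins the complexes of PCGF3 and PCGF5 and is associated with gene activation in neurons, fell from 18.4 ± 1.90 to 13.7 ± 1.24 RPKM (SD, n = 9 each; -0.41, limma adjusted p = 1.24e-05). With PCGF3 or PCGF5 belong 7 listed genes, of which 3 rose and 2 fell. The partners of PCGF6 gave 4 higher and 0 lower of 6: L3mbtl2, Mga, Max and Wdr5. L3mbtl2, a chromatin-compacting MBT protein, rose from 10.96 ± 0.575 to 12.8 ± 0.698 RPKM (SD, n = 9 each; 0.22, limma adjusted p = 0.000113) without overlap. Mga, a DNA-binding scaffold that pairs with MAX, rose from 6.78 ± 0.738 to 9.12 ± 0.986 RPKM (SD, n = 9 each; 0.40, limma adjusted p = 4.47e-05). The 5 partners of PCGF1 gave 1 higher, the deubiquitinase gene Usp7 (0.20, limma adjusted p = 6.66e-05), and 1 lower, the corepressor gene Bcor (-0.16, limma adjusted p = 0.0311).

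**Figure D5:**
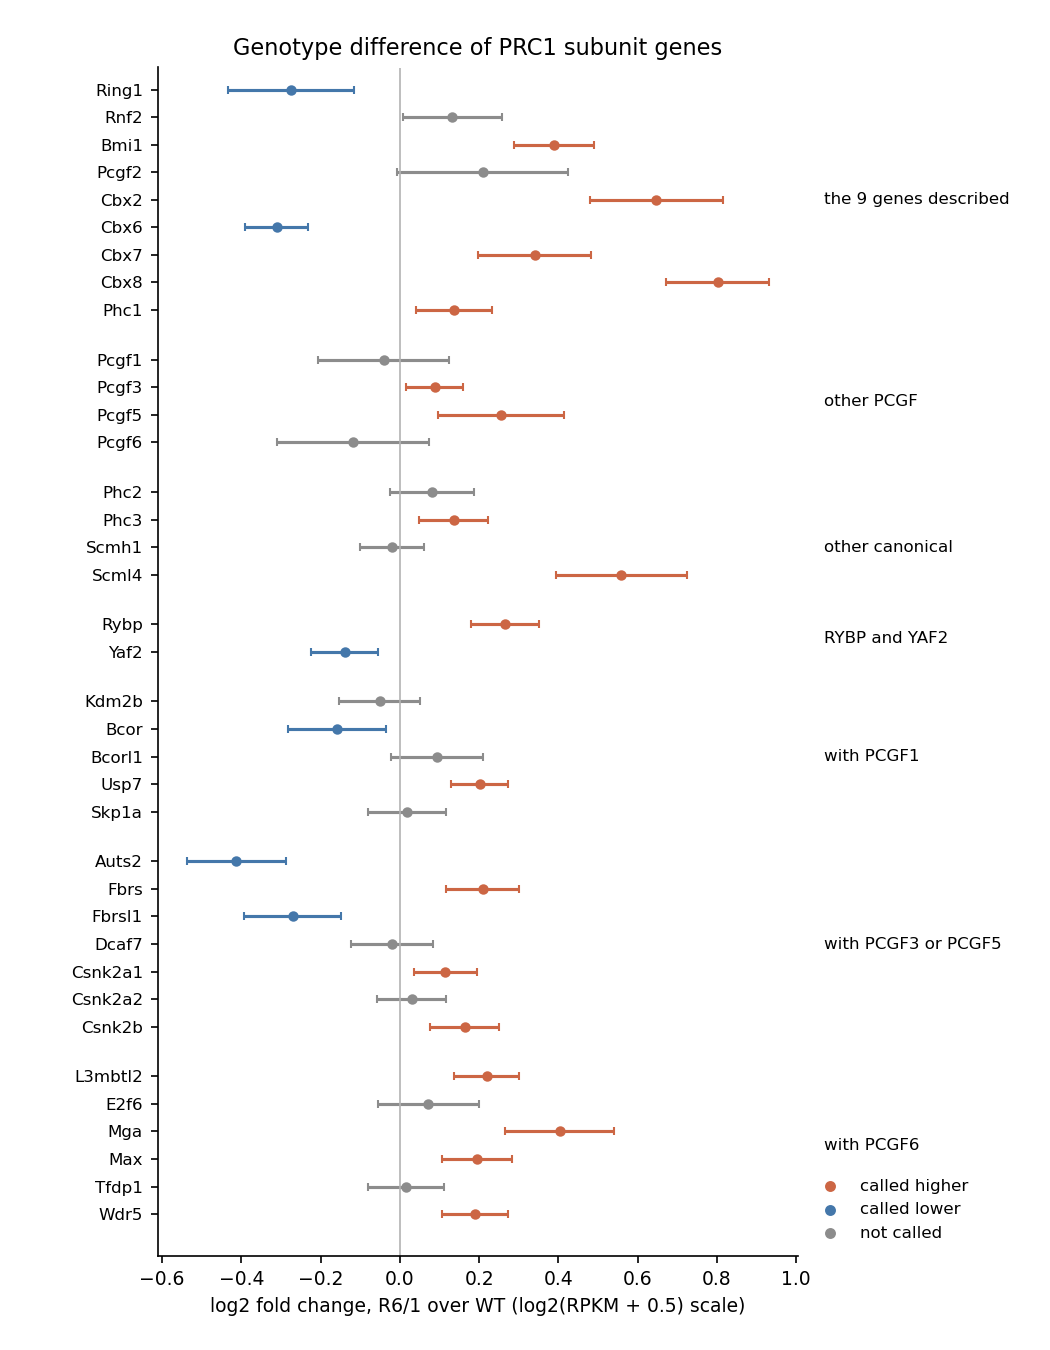
Log2 fold change of R6/1 over WT with its 95% interval (horizontal axis, log2(RPKM + 0.5) scale) for the 9 genes described and the 28 other tested PRC1 subunit genes, grouped by the part of the complex; orange is called higher, blue called lower and grey not called. Cbx8 stands farthest to the right at 0.80, and Auts2 farthest to the left at -0.41.

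Other enzymes remove the ubiquitin that PRC1 adds. Of 14 genes of H2A deubiquitination, 3 were called higher and 3 lower, with a median log2 fold change of -0.0070, which is near the 24.8% higher and 23.5% lower of all tested genes. Bap1, the catalytic subunit of the Polycomb repressive deubiquitinase, fell from 43.3 ± 1.66 to 36.8 ± 2.21 RPKM (SD, n = 9 each; -0.23, limma adjusted p = 2.06e-05). Its cofactor gene Asxl1 rose from 10.0 ± 0.376 to 12.4 ± 0.626 RPKM (SD, n = 9 each; 0.30, limma adjusted p = 1.14e-06). Usp16, another H2A deubiquitinase gene, fell from 7.88 ± 1.11 to 6.17 ± 0.611 RPKM (SD, n = 9 each; -0.32, limma adjusted p = 0.00186).

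Of 13 PRC2 genes 11 were tested, with 4 higher, 1 lower and a median log2 fold change of -0.04, beside 24.8% higher and 23.5% lower among all tested genes. Epop, whose protein joins PRC2 to elongin, fell from 15.0 ± 3.34 to 4.70 ± 1.16 RPKM (SD, n = 9 each; -1.58, limma adjusted p = 1.83e-08) without overlap. Phf1, a reader that helps PRC2 to its sites, rose from 15.0 ± 1.79 to 21.7 ± 1.45 RPKM (SD, n = 9 each; 0.53, limma adjusted p = 1.25e-06), and the histone chaperone gene Rbbp4 from 29.8 ± 1.23 to 35.2 ± 1.73 RPKM (SD, n = 9 each; 0.23, limma adjusted p = 1.06e-05).

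Among the cell cycle inhibitor genes of the Ink4 and Cip/Kip families, Cdkn2a and Cdkn2b of the Ink4 locus are the textbook targets of PRC1. Of 6 listed genes of these families, 5 were tested and 3 were called higher and 0 lower (24.8% and 23.5% of all tested genes). The 3 were Cdkn1a, Cdkn1c and Cdkn2d, which lie outside that locus. Cdkn1a, the gene of p21, ran from 1.77 to 4.60 RPKM in WT (median 3.15) and from 4.40 to 20.2 RPKM in R6/1 (median 12.5). R6/1 replicate 5, at 4.40 RPKM, lay inside the WT range and the other 8 above it. The log2 fold change was 1.84 (limma adjusted p = 4.76e-06). Cdkn2d rose from 13.5 ± 1.07 to 15.1 ± 0.632 RPKM (SD, n = 9 each; 0.16, limma adjusted p = 0.00468). Cdkn2a, the Ink4a/Arf gene, was under the filter and was singled out after its values were seen: it had 0 to 3 reads per WT library, 9 in all, and 3 to 10 per R6/1 library, 50 in all. With no filter on low values its log2 fold change was 0.53 (limma adjusted p = 3.65e-05). Its means of 0.0592 RPKM in WT and 0.312 RPKM in R6/1, a ratio of 5.27, are below the 0.5 added before the logarithm. The fitted value is therefore smaller than that ratio. The authors' deposited table gives a log2 fold change of 0.98 and an adjusted p of 0.000125 for Cdkn2a. Its neighbour Cdkn2b, with 5 to 18 reads per WT library and 7 to 23 per R6/1 library, did not pass the test (0.17, limma adjusted p = 0.294).

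Markers of the hippocampal fields and cell types were present in both genotypes, as the label of the tissue says, and many moved with genotype as well. Their counts stand beside 24.8% called higher and 23.5% called lower among all tested genes. Pan-neuronal markers fell in 5 of 5, from a summed 1639 to 1972 RPKM in WT to 1295 to 1428 RPKM in R6/1, dentate granule markers in 5 of 5 (92.1 to 135.5 and 52.9 to 62.5 RPKM), CA2/CA3 markers in 4 of 5 (78.9 to 128.2 and 54.9 to 69.6 RPKM) and inhibitory neuron markers in 5 of 6 (351.3 to 427.8 and 212.1 to 278.1 RPKM). CA1 markers gave 4 lower and 1 higher of 5 (100.5 to 135.7 and 66.0 to 81.1 RPKM), astrocyte markers 4 lower and 1 higher of 5 (350.4 to 500.0 and 275.4 to 401.3 RPKM), oligodendrocyte markers 4 lower of 5 (850.2 to 1096 and 492.0 to 876.9 RPKM), microglia markers 2 lower of 5 (91.3 to 130.6 and 73.0 to 116.0 RPKM) and striatal neuron markers 3 lower of 5 (20.6 to 30.1 and 13.9 to 18.6 RPKM). By limma at an adjusted p under 0.05, 0 markers of oligodendrocyte precursors (of 4 tested), endothelial cells (4), immature neurons (3) and choroid plexus (5) were called. The 5 markers of dividing cells were all under the filter and summed to 0.941 to 1.37 RPKM in WT and 0.614 to 0.961 RPKM in R6/1. Of the defining markers, Top2a and the choroid gene Kcne2 were at 0 in at least 1 library. Choroid plexus markers varied widely within both genotypes, from 25.2 to 1068 RPKM in WT and from 38.0 to 1736 RPKM in R6/1, and the calls of all 9 PRC1 genes were the same with their mean level as a covariate. The part of the other markers in the PRC1 results was not tested.

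Within genotypes, the genes whose levels went most closely with Cbx8 from library to library were Snord88a, Traf6 and Srp9 (Pearson r of deviations from the genotype mean 0.78, 0.76 and 0.76 over 18 libraries), and Cbx2 stood at 0.47, rank 290. For Cbx6 they were D17Wsu92e, Zbtb40 and Rasl10b (0.88, 0.86 and 0.84). These correlations describe libraries that share depth and dissection and carry no test.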

How the data were processed

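RNA-seq libraries of 9 WT and 9 R6/1 hippocampi were assigned to their genotype by the labels; 0 per-sample columns went unused. They were stranded messenger RNA libraries, per the labels' protocols. The authors deposited RPKM per gene symbol; the submitters' processing notes name TopHat, DESeq2 and mm9, with no version. In each library 99.87% to 99.91% of the deposited values correspond to a whole number of reads (within 0.05), which gives back the reads. The authors' deposited table of the genotype comparison holds a mean normalized count as signal, a log2 fold change, a test score, and p-values. The deposited lamin B1 domain lists, 1 per genotype, hold a score per domain, used only for an alternative that keeps the upper scores; how the replicates were combined is not given in the sources used here. ATAC-seq was not analysed here, and 1 further gene is not reported here.

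limma 3.58.1 (lmFit, eBayes with a mean-variance trend, R 4.3.3) was fitted to log2(RPKM + 0.5) of all genes whose mean over the 18 libraries reached 0.5 RPKM, two-sided, with Benjamini-Hochberg adjustment over the 14446 tested. Tested on simulated data with this design, it recovered 58% of genes changed by 0.3 on the log2 scale and 90% of those changed by 0.6 (14458 genes). Only 50 genes were changed by each of these sizes, whereas 48.3% of the tested genes were called in the real data. The adjustment is stricter where few genes change, so these rates do not give the recovery in the real data. Ratios within a library were tested by exact permutation. The 95% intervals are limma's, before adjustment. Named genes are the 9 members, those with the smallest p in each list (up to 6 other PRC1 subunits, 3 deubiquitination genes, 3 PRC2 genes and 2 inhibitors), the genes around Cbx2 and Cbx6 and the 3 whose deviations went most closely with Cbx8 and Cbx6; others named beside a group count of 5 or fewer were chosen after their values were seen, as was the grouping by complex. The members, lists and tests were chosen with earlier results of these data known. Gene positions are from the NCBIM37 annotation, promoter sequences from RefSeq (GRCm38.p6). Other pseudocounts, filters, scalings, library weights, a replicate block, left-out libraries and a choroid covariate were tried.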

Additional observations from a re-analysis of the deposited data

Results flagged for a closer look

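Bmi1 in WT replicate 2 stood apart from the other WT libraries, at 15.0 RPKM (812 reads), with the next lowest WT library at 17.8 RPKM; its gap was wide against the range of the 9 WT values by Dixon's criterion. The other 8 WT libraries lay below the lowest R6/1 library, 21.9 RPKM, too. L3mbtl2, a partner of PCGF6, stood apart in R6/1 replicate 6 at 14.3 RPKM (845 reads), with the next highest R6/1 library at 13.2 RPKM. Of 54 groups of values examined 2 were picked out in this way, where chance alone gives about 2.7.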

How the results depend on the processing

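Directions and calls of Ring1, Bmi1, Cbx2, Cbx6, Cbx7 and Cbx8 were the same under every alternative that gave a value; Cbx2 has none under a filter of at least 2 RPKM. Across the alternatives 4 to 7 of the 9 genes were called higher and always 2 lower. Rnf2 (0.13) was called with each library's own total of reads (0.20), library weights (0.14), the replicate block and without R6/1 replicate 5 (0.17). Under own totals 2 other PRC1 subunits were lower, not 4, and 8 genome neighbours were higher, not 5; the PRC2 genes called lower numbered 1 to 2 with single libraries left out. The log2 ratio of Cbx8 over Cbx2 was -0.019 with a pseudocount of 0.1 (exact permutation, adjusted p = 0.837), 0.25 with 1 (exact permutation, adjusted p = 0.00222) and 0.13 to 0.20 with single libraries left out (exact permutation, adjusted p from 0.00806 to 0.111). Leaving out WT replicates 1 and 6 together, chosen after seeing the data, as was the choroid covariate, gave -0.34 for Pcgf2 over Bmi1 (exact permutation, adjusted p = 0.00839). The cause was not tested. The labels do not say whether a replicate number pairs a WT with an R6/1 library. Same-numbered deviations correlated at -0.053 to 0.237, over 0.1 in 3 of 9 pairs. Among the WT libraries, 2 correlated best with their own number. These values do not settle whether the numbers pair the libraries. With the replicate block 6 of the 9 genes were called higher, Rnf2 added (0.13, limma adjusted p = 0.0288), and the 4 ratios kept their side of the threshold (0.41, -0.18, 0.65 and 0.15). Depth limits Cdkn2a, Cdkn2b and, among the 9 genes, Cbx2, with as few as 31 reads per library.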
